A study of Mus musculus with 9 samples.

Results

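The cytoplasmic ribosomal proteins are the protein parts of the ribosome that translates nuclear messenger RNA. They were taken by symbol: Rpl or Rps followed by digits and at most 1 of the letters a, x or l, plus Rplp0, Rplp1, Rplp2 and Rpsa, with pseudogenes and the Rps6k kinases left out. A gene counted as measured where at least 1 probe set of the array was assigned to it alone, and its brightest probe set, by the mean of the 9 arrays, then stood for it. This gave 46 genes of the 18193 measured, 24 of the large and 22 of the small subunit, with 100 probe sets in all. A further 110 probe sets carry several symbols of which at least 1 fits the rule, because ribosomal protein genes have many near-identical processed copies in the mouse genome. Rpl3, Rpl5, Rpl10 and Rplp1 are read here only through such shared probe sets and are not named from them, and Rpl10l had no probe set of its own. The samples are epidermis, scratched off frozen skin, of hairless mice (SKH1 background, 5 backcross generations). All mice were homozygous for floxed Alox12b alleles (Alox12b fl/fl), all received 3 intraperitoneal injections of 1 mg tamoxifen at 8 weeks of age, and skin was taken 6 days after treatment. The 5 arrays labelled Alox12b fl/fl Cre, called inactivated here by their label, come from mice that also carry a tamoxifen-dependent Cre under the keratin 14 promoter, which is active in basal keratinocytes. The 4 control arrays come from floxed littermates without Cre, so loss of Alox12b, a lipoxygenase of the skin barrier, and the presence of active Cre cannot be told apart.

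A ribosome joins a small subunit, which reads the messenger RNA, to a large subunit, which forms the peptide bond, and each ribosomal protein is built into 1 of them in a fixed place. Cells make these proteins in matched amounts, largely by control of translation: most of their messenger RNAs begin with a C followed by a run of pyrimidines, the terminal oligopyrimidine tract, through which mTOR and the RNA-binding protein Larp1 act. Their transcripts are among the most abundant in most cells, keratinocytes included, and epidermis, which renews itself from a basal layer, needs a constant supply of new ribosomes.

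The annotated start regions are shown first, because the pyrimidine tract at the 5′ end is the sequence feature the family is known for. Start regions came from RefSeq (build GRCm38.p6), which gave 40 of the 46 genes and lacked 6. Each line holds 40 bases before and 20 bases from the annotated start on, 5′ to 3′, and capitals mark a run of at least 6 C or T that begins with C within 15 bases of the start. Where several starts are listed, as for 7 genes, the one with the longest run was used, and the start used in epidermis was not measured. The first 5 genes shown passed the test below and were lower in the inactivated group, Rpl27a did not pass, and the last 4, of which Rplp0 and Rpl37 were lower, Rps25 was higher and Rpl41 did not pass, hold no such run.
Rps19 (chr7:24884873-24884932, plus strand): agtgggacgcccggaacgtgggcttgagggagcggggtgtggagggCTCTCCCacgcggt
Rps9 (chr7:3704001-3704060, plus strand): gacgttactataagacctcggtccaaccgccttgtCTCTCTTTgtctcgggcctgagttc
Rps18 (chr17:33955646-33955705, minus strand): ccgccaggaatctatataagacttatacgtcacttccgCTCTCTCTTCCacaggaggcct
Rps10 (chr17:27635225-27635284, minus strand): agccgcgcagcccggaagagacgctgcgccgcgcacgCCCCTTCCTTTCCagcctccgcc
Rpl39l (chr16:10170188-10170247, plus strand): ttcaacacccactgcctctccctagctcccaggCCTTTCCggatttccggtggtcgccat
Rpl27a (chr7:109519155-109519214, plus strand): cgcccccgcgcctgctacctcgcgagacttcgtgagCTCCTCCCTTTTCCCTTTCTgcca
Rplp0 (chr5:115559427-115559486, plus strand): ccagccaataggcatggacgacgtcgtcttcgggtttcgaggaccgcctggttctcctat
Rpl37 (chr15:5116573-5116632, plus strand): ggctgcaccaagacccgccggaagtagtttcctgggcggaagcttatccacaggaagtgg
Rps25 (chr9:44407674-44407733, plus strand): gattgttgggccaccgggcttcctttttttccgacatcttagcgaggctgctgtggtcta
Rpl41 (chr10:128549149-128549208, minus strand): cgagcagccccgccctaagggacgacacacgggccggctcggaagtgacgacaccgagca
A run of this kind stood at 1 or more annotated starts in 25 of the 40 genes (62.5%), against 29.5% of 27025 genes in the same table. Among the 12 genes that passed and were lower it was found in 7 (58.3%), and among the other 28 in 18 (64.3%). The letters CCGGAAG, the core bound by ETS-family factors such as Gabpa, were searched on both strands from 250 bases before to 50 after each start, without removing overlaps with the pyrimidine run. They lay in 20 of the 40 genes (50%), against 9.9% of all genes, in 7 of the 12 lower genes (58.3%) and in 13 of the other 28 (46.4%). Both features were more frequent in the family than in all genes, and the shares of lower and other members are descriptions whose difference was not tested.

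Values are array signals read as log2, 1 array per mouse, and the labels number the mice as biological replicates. On this scale a probe set below about 4 is near background, and signals of different probe sets are not compared as transcript amounts. Alox12b has 1 probe set, which read higher in the inactivated group, 9.89 ± 0.29 (SD, n = 5) against 9.28 ± 0.10 (SD, n = 4) in the control group, with no overlap. Whether it lies in the deleted part is not given in the sources used here, so it does not check the labels, and every direction below rests on them. The 8 keratinocyte markers had a mean level of 12.47 to 12.66 on the inactivated arrays and 12.60 to 12.68 on the control arrays, with 1 higher and 1 lower. Fibroblast markers were lower in 7 of 8 genes (mean level 9.47 to 10.25 against 10.36 to 10.97), macrophage markers in 4 of 5 (8.28 to 8.98 against 9.13 to 9.52) and T cell markers in 3 of 4 (5.13 to 5.50 against 6.19 to 6.53). Melanocyte markers were higher in 4 of 4 (5.02 to 6.81 against 3.70 to 4.06). The 7 skeletal muscle markers had a mean level of up to 7.28 in the inactivated group, on array 4, against 3.23 to 3.50 in the control group. The part of these cell types in the results below was not tested.

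Most ribosomal protein transcripts read slightly lower in epidermis of the inactivated group, and the shift was small and shared by both subunits. With limma and adjustment over all 45037 probe sets (adjusted p below 0.05), 12 of the 46 genes (26.1%) were lower: Rpl39l, Rpl37, Rps19, Rplp0, Rps9, Rps18, Rps15, Rps7, Rpl10a, Rpsa, Rps10 and Rpl11. Across all genes 18.9% were lower, and the difference between these shares was not tested. Only 2 (4.35%) were higher, Rps25 and Rps4l, against 15.5% of all genes, and 14 (30.4%) passed in either direction, against 34.4%. The other 32 did not pass. The median difference over the 46 genes was -0.13 on the log2 scale, against 0.031 over all genes, and 37 of the 46 lay below 0. The lack of overlap between groups was more frequent than the test calls: in 30 of the 46 (65.2%) every inactivated array lay below every control array, against 17.6% of all genes. The reverse held in 3 (6.52%), against 14% of all genes. Fewer cells rich in these transcripts and less of them per cell cannot be told apart in bulk RNA.

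The count of 12 depends on how the spread is estimated and on the scaling of the arrays. With an intensity trend and a robust prior 29 members were lower (18.9% of all genes), and with no moderation 31 (15.9%). After cyclic loess normalisation 24 were lower (17.3%). When single arrays were left out the count was 9 to 16, against 15.1% to 19.7% of all genes. The count was 9 without inactivated array 4 (17.3% of all genes), without control array 1 (16.7%) and without control array 4 (15.2%).

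**Figure D1:**
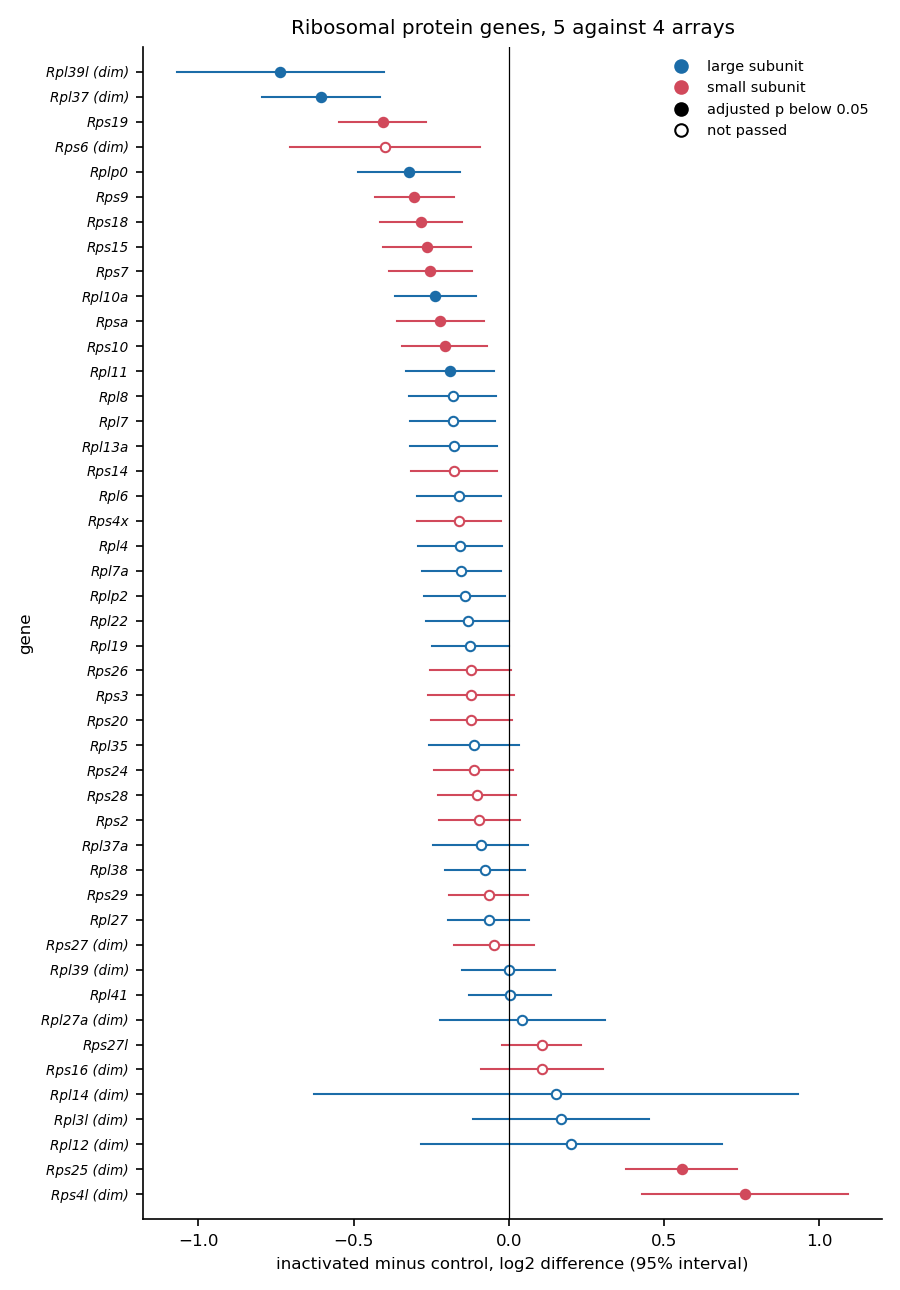
Log2 difference (inactivated minus control, x axis) with its 95% interval for each of the 46 ribosomal protein genes (y axis), coloured by subunit; filled points passed limma at adjusted p below 0.05. Most bright members lie between 0 and -0.41, and the widest spread in both directions is among dim members (mean log2 value under 11), with Rpl39l at -0.74 and Rps4l at 0.76.

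The members fell into 34 bright genes, with a mean log2 value of at least 11, and 12 dim ones; this threshold was set after the values were seen. Just above it were Rps27l at 11.04 and Rpl27 at 11.69, and just below it Rpl27a at 8.75. Of the 34 bright genes 10 were lower, 0 were higher by limma (0 also at an unadjusted p below 0.05, and 1, Rps27l, without moderation), and 32 had a difference below 0. Their median difference was -0.15, their quartiles were -0.20 and -0.11, and the 95% intervals of all 34 lay between -0.55 and 0.23. The 17 bright large subunit genes had a median of -0.15 with 3 lower, and the 17 bright small subunit genes a median of -0.16 with 7 lower. Across all genes 18.9% were lower, and the large subunit count is near that share. In each subunit 16 of the 17 bright genes had a difference below 0. Other bright genes did not share the shift of the median: 225 other genes with a mean of at least 11 had a median difference of 0.045, with 65 higher and 52 lower. Lower calls were thus also found there, and 52 of 225 against 10 of 34 bright members was not tested for a difference. At a mean of at least 12, 10 of 32 members were lower (31.2%), against 12 of 64 other genes (18.8%), and the medians were -0.16 and 0.013. Over the 34 bright members the difference had a Pearson correlation of 0.015 and a Spearman correlation of 0.41 with the mean level; these genes share their 9 arrays.

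Array by array, the median of the 34 bright members, measured against the mean of the control arrays, was -0.18, -0.16, -0.16, -0.16 and -0.098 on inactivated arrays 1 to 5. It was 0.027, -0.022, -0.00053 and -0.0015 on control arrays 1 to 4. All 5 inactivated arrays lay below all 4 control arrays, and inactivated array 5 stood nearest to them. The medians of the other bright genes ranged from 0.018 to 0.097 on the inactivated arrays and from -0.0035 to 0.0088 on the control arrays, so at a mean of at least 11 the other genes did not read low as a group. At a mean of at least 12, where most bright members lie, the medians of the other genes ran from -0.024 to 0.045 on the inactivated arrays and from -0.0015 to 0.0074 on the control arrays, and inactivated array 1 lay below all 4 control arrays. The summaries of all values differed in direction. The 99th percentile was higher on the inactivated arrays, 11.18 ± 0.014 (SD, n = 5) against 11.09 ± 0.015 (SD, n = 4). Its two-sided exact permutation p was 0.00794, the smallest that 5 against 4 arrays allow. The array median was lower on the inactivated arrays, 4.36 against 4.41 (exact permutation p = 0.0238). The 90th percentile was 8.28 against 8.30 (exact permutation p = 0.0873). The part of array scaling in the member shift was not tested.

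**Figure D2:**
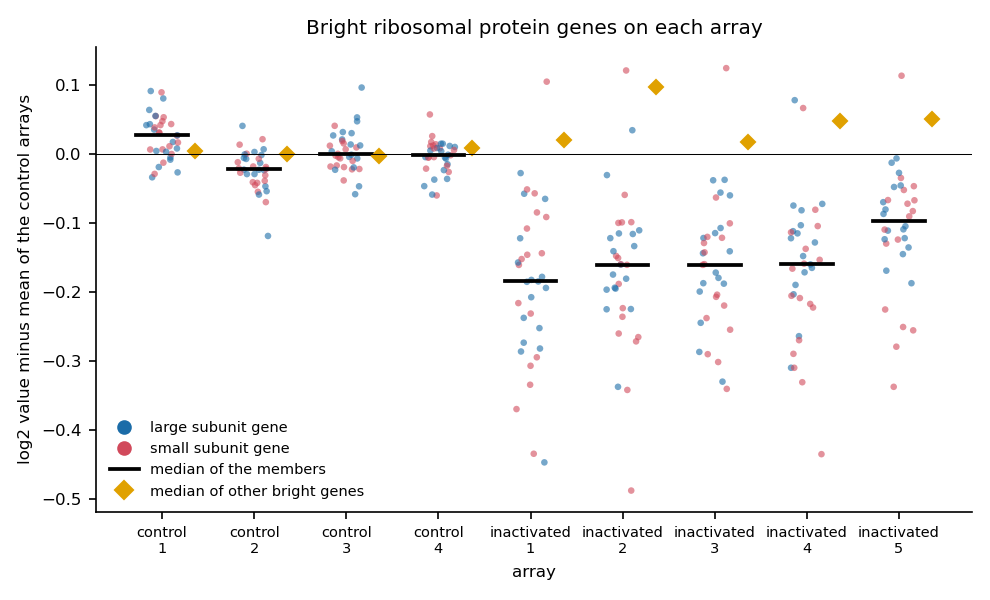
Log2 value of each of the 34 bright ribosomal protein genes minus its mean over the control arrays (y axis) on each of the 9 arrays (x axis); black bars are the median of the members and diamonds the median of 225 other bright genes. The member medians of the inactivated arrays run from -0.18 to -0.098 while the diamonds there are at or above 0.018.

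Of the 54 probe sets of these genes that did not stand for a gene, 33 had a difference below 0, and the bright and the dim ones differed in direction. Of the 25 bright ones, 24 had a difference below 0 and 8 passed and were lower, with a median of -0.15. Of the 29 dim ones, 9 were below 0 and 20 above, 1 passed and was lower and 1 passed and was higher, with a median of 0.16. Of the 78 bright shared probe sets, 76 were below 0 and 28 passed and were lower, with a median of -0.15, against 16% of all probe sets passed and lower. The bright probe sets can bind the same transcripts as those of the members, so they are repeat readings and not further genes.

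**Figure D3:**
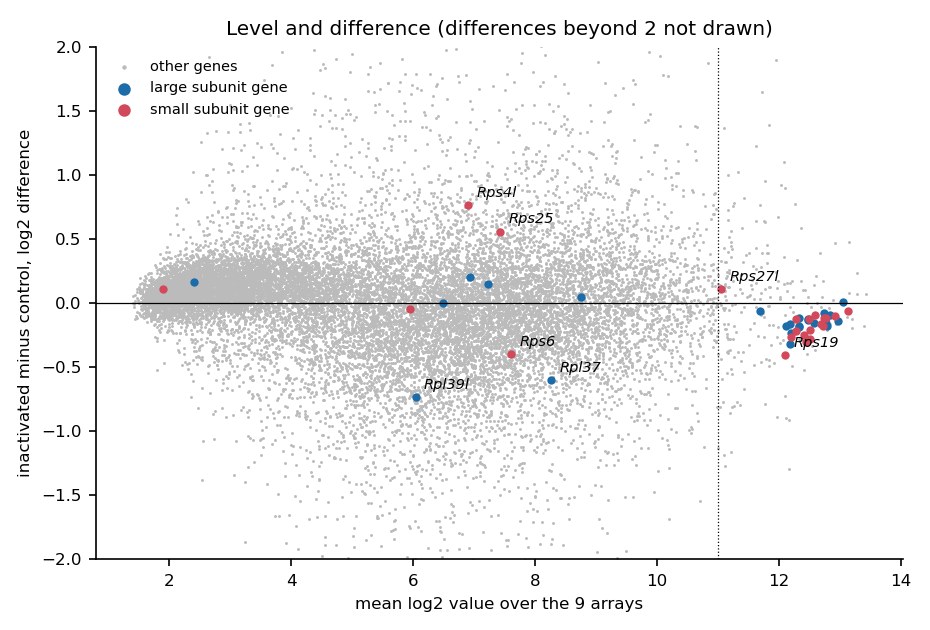
Log2 difference (inactivated minus control, y axis) against the mean log2 value over the 9 arrays (x axis) for all genes (grey) and the ribosomal proteins (coloured by subunit); 210 genes with a difference beyond 2 in size are not drawn, and the dotted line marks a mean of 11. The bright members form a compact group just below 0 at the right edge, and the dim members scatter like other genes.

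In the small subunit, Rps19, which is needed for maturation of the small subunit RNA, showed the largest fall among bright members. It read 11.89, 11.83, 11.98, 11.89 and 11.98 on inactivated arrays 1 to 5 and 12.37, 12.27, 12.33 and 12.32 on control arrays 1 to 4. The groups did not overlap, and the difference was -0.41 ± 0.064 (SE; limma adjusted p = 0.00095), a level 1.33-fold lower. Rps9, which sits near the messenger RNA entry site and bears on decoding accuracy, read 12.31, 12.26, 12.30, 12.29 and 12.33 in the inactivated group and 12.61, 12.58, 12.64 and 12.58 in the control group. Its difference of -0.31 ± 0.058 (adjusted p = 0.00281) was larger than the spread within either group, and the groups did not overlap. Rps18, in the head of the subunit, read 12.35, 12.40, 12.37, 12.33 and 12.44 against 12.69, 12.62, 12.67 and 12.67, a difference of -0.28 ± 0.059 (adjusted p = 0.0051). Its next brightest probe sets fell as well, by 0.26 (adjusted p = 0.00991) and 0.24 (adjusted p = 0.0274), whereas dim probe sets of Rps9 and Rps18 did not pass, and both genes lost their call when all their probe sets were averaged (-0.12, adjusted p = 0.41, and -0.046, adjusted p = 0.57).

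Rps15, whose tail reaches towards the decoding site, read 11.97, 12.16, 12.12, 12.05 and 12.09 in the inactivated group and 12.40, 12.30, 12.32 and 12.35 in the control group (-0.26 ± 0.064, adjusted p = 0.0112). Its second probe set showed a larger fall of 0.46 (adjusted p = 0.000412). Rps7, which also binds the p53 regulator Mdm2 outside the ribosome, read 12.21, 12.32, 12.31, 12.33 and 12.29 against 12.58, 12.56, 12.51 and 12.54 (-0.25 ± 0.060, adjusted p = 0.00979), and its second probe set fell by 0.33 (adjusted p = 0.00398). Neither gene had overlapping groups. Rpsa, the laminin receptor precursor, read 12.18, 12.16, 12.15, 12.13 and 12.27 against 12.43, 12.33, 12.38 and 12.46 (-0.22 ± 0.063, adjusted p = 0.024). This call was lost without inactivated array 4 and without control array 1, 3 or 4, with adjusted p up to 0.32 over all alternatives. Rps10, at the messenger RNA entry channel, differed by -0.21 ± 0.062 (adjusted p = 0.0281) with groups apart, and its 4 other probe sets above 10 differed by -0.16, -0.16, -0.14 and -0.10, none of which passed.

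Rps6, the substrate of S6 kinase downstream of mTOR, is read by a dim probe set. It gave 7.07, 7.38, 7.53, 7.40 and 7.76 in the inactivated group and 7.97, 7.87, 7.53 and 7.95 in the control group. The groups overlapped, since control array 3 matched inactivated array 3, and the difference of -0.40 ± 0.14 did not pass (adjusted p = 0.0534). Without control array 3 or without inactivated array 5 the gene passed.

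In the large subunit, Rplp0 carries the stalk that recruits the elongation factors. It read 11.91, 12.02, 12.03, 12.05 and 12.17 on the inactivated arrays and 12.37, 12.24, 12.46 and 12.37 on the control arrays. The groups did not overlap and the difference was -0.32 ± 0.075 (adjusted p = 0.00865), 1.25-fold lower. Its stalk partner Rplp2 read 12.88, 12.91, 12.85, 12.92 and 12.93 against 13.00, 13.02, 13.09 and 13.04. The groups were apart here too, but the difference of -0.14 ± 0.059 did not pass (adjusted p = 0.0954). Rpl10a, which forms the stalk on the exit side, read 12.05, 12.11, 12.09, 12.07 and 12.17 against 12.35, 12.31, 12.33 and 12.34 (-0.24 ± 0.059, adjusted p = 0.0122). Rpl11, which with Rpl5 and the 5S RNA forms the particle that binds Mdm2, read 12.14, 12.23, 12.24, 12.22 and 12.35 against 12.47, 12.42, 12.44 and 12.38. Its difference of -0.19 ± 0.064 passed narrowly (adjusted p = 0.0488), and the call was lost in 14 of 25 alternatives, among them leaving out any 1 array other than inactivated array 5.

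Rpl37, a zinc-binding protein of the large subunit, fell more than any bright member, but on a dim probe set. It read 7.84, 7.95, 7.99, 8.00 and 8.22 in the inactivated group and 8.58, 8.53, 8.57 and 8.73 in the control group, a difference of -0.60 ± 0.086 (adjusted p = 0.000526; 1.52-fold lower). Bright members with no passing difference included Rpl8, Rpl7, Rpl13a and Rps14, each at -0.18 with adjusted p from 0.0505 to 0.0588 and with groups apart. These values are of the brightest probe set. The second probe sets of Rps14 (-0.28, adjusted p = 0.00599) and Rpl13a (-0.22, adjusted p = 0.0212) passed and were lower. The dimmer ones of Rpl13a (0.011 and 0.20) and the others of Rpl7 (-0.19 and -0.067) did not pass. Rpl41, the smallest ribosomal protein, did not move with the rest: it read 13.02, 13.08, 12.99, 13.12 and 13.04 against 13.05, 13.04, 13.04 and 13.04. The groups overlapped, and the difference of 0.0044 had a 95% interval from -0.13 to 0.14, so its lower end lies above the bright member median of -0.15. Rpl41 was named for its small difference, so this comparison is a description and not a test. Its second bright probe set differed by 0.095 with groups apart, and its dim ones by 0.17 and 0.26. None of these passed.

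Among the copies with restricted expression, Rpl39l and Rps4l moved in opposite directions. Rpl39l, a copy of Rpl39 known from testis, read 5.81, 5.49, 5.44, 6.05 and 5.81 in the inactivated group and 6.16, 6.34, 6.75 and 6.56 in the control group. Its difference was -0.74 ± 0.15 (adjusted p = 0.00442), and the groups did not overlap. Rpl39 itself, which lines the exit tunnel, read 6.37 to 6.63 in the inactivated group and 6.47 to 6.53 in the control group, a difference of -0.0010 ± 0.068 (adjusted p = 0.993). Rps4l, a copy of Rps4x, read 7.33, 7.42, 7.02, 6.98 and 7.47 against 6.88, 6.51, 6.32 and 6.23, a difference of 0.76 ± 0.15 (adjusted p = 0.00362; 1.70-fold higher). Rps4x differed by -0.16 ± 0.061 (adjusted p = 0.0747). Rps27l, a p53-induced copy of Rps27, was the only bright member with every inactivated array above every control array: 11.09, 11.11, 11.11, 11.05 and 11.10 against 11.03, 10.98, 10.97 and 10.97. The difference of 0.11 ± 0.057 did not pass (adjusted p = 0.195), and its other probe sets differed by 0.16 and 0.17. It passed as higher when its probe sets were averaged (0.14, adjusted p = 0.0451) and without moderation (adjusted p = 0.00685), and was -0.023 after the median of other bright genes was subtracted from each array. Rps27 differed by -0.048 on a dim probe set (adjusted p = 0.573). Rpl3l, a copy of Rpl3 expressed in muscle, stayed near background, at 2.34 to 2.83 in the inactivated group and 2.07 to 2.62 in the control group.

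Rps25, which many viral internal entry sites need, was the other gene that rose. It read 7.64, 7.71, 7.49, 7.69 and 7.85 on the inactivated arrays and 7.09, 7.06, 7.12 and 7.21 on the control arrays, a difference of 0.56 ± 0.081 (adjusted p = 0.000596; 1.47-fold higher) with no overlap. Both genes that rose are read by a single dim probe set, so no second reading of their own was available. Other dim members were uninformative: Rps16 is read by a probe set at 1.9, and Rpl14 split into values of 6.53 to 6.71 and 7.49 to 7.87 within both groups. Rpl27a differed by 0.044 ± 0.12 (adjusted p = 0.813). Within Rpl22, chosen after its values were seen, the probe sets disagreed in size. The brightest differed by -0.13 and the second by -0.070, neither of which passed, while the remaining one read 6.54, 6.84, 6.85, 6.93 and 7.18 against 8.36, 8.02, 8.11 and 8.06, a fall of 1.27 (adjusted p = 4.73e-05).

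Components of the ribosome outside the symbol rule were read through 5 genes of the 8 listed, of which 2 (40%) were lower and 1 (20%) higher. Across all genes 18.9% were lower and 15.5% higher. Fau, whose product is split into a ubiquitin-like part and the small subunit protein eS30, fell by 0.24 (adjusted p = 0.00983), and it read 12.10 to 12.20 on the inactivated arrays and 12.38 to 12.41 on the control arrays. Rpl22l1, the copy that Rpl22 represses, fell by 0.38 (adjusted p = 0.00258). Rsl24d1, which is held in the large subunit only during assembly, rose by 0.28 (adjusted p = 0.0164); this call was lost in 5 of 25 alternatives, among them without control array 2 (0.24, adjusted p = 0.0541) and with the median of other bright genes subtracted (0.15, adjusted p = 0.186). Rps3a1 differed by -0.16 without passing.

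Other transcripts known to begin with a pyrimidine tract had a median difference over 10 genes of -0.13. By limma 0 of the 10 were higher, against 15.5% of all genes (0 also at an unadjusted p below 0.05). The lower genes numbered 4 (40%, against 18.9% of all genes). They were Vim, a mesenchymal filament (-0.99, adjusted p = 0.000708), Nop53, a ribosome assembly factor (-0.80, adjusted p = 8.05e-05), Hnrnpa1, an RNA-binding protein (-0.43, adjusted p = 0.00972), and Naca, which shields nascent chains on the ribosome (-0.27, adjusted p = 0.0139). Vim is also made by fibroblasts, whose markers were lower on the same arrays; their part in this value was not tested. Of 10 host RNAs of small nucleolar RNAs 2 were lower by limma (20%, near the 18.9% of all genes) and 0 higher (1 at an unadjusted p below 0.05), with a median over the 10 of -0.21. The lower ones were Gas5 (-0.50, adjusted p = 0.00262) and Zfas1 (-0.38, adjusted p = 0.00808). Gas5 was -0.20 (adjusted p = 0.298) when its probe sets were averaged and 0.21 (adjusted p = 0.59) on the probe set with the largest spread.

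Of 65 ribosome biogenesis genes, whose products build ribosomes, 30 were higher (46.2%, against 15.5% of all genes) and 2 lower (3.08%, against 18.9%), with a median difference of 0.25. Against the control mean the median of the list was 0.14, 0.25, 0.31, 0.22 and 0.37 on inactivated arrays 1 to 5 and 0.21, -0.052, -0.063 and -0.073 on control arrays 1 to 4. Control array 1, the only female control, stood apart from the other controls and within the inactivated range. Without it 37 genes were higher, and with the median of other bright genes subtracted 19 were higher. Rrn3, which starts transcription by RNA polymerase I, read 7.96 to 8.15 on the inactivated arrays and 7.22 to 7.33 on the control arrays, a rise of 0.75 ± 0.067 (adjusted p = 3.02e-05). Utp4, of the small subunit processome, rose by 1.04 (adjusted p = 0.000706), Nmd3, the export adaptor of the large subunit, by 0.64 (adjusted p = 0.000197), and Eif6, which keeps the subunits apart, by 0.60 (adjusted p = 0.000222). Polr1c (-0.33) and Imp3 (-0.37) were the 2 that fell. Mitochondrial ribosomal proteins, which serve a separate ribosome, were higher in 17 of 76 genes (22.4%, against 15.5% of all genes) and lower in 4 (5.26%, against 18.9%), with a median of 0.10. When single arrays were left out 11 to 20 were higher, against 11.5% to 15.6% of all genes. With the median of other bright genes subtracted 8 were higher and 8 lower, against 8.68% and 28.4% of all genes. Control array 1 stood apart here too, at 0.099, among inactivated arrays at -0.065 to 0.27. Their examples were Mrpl45 (0.47), Mrpl35 (0.49), Mrpl20 (0.42) and Mrps33 (0.38), all with adjusted p of at most 0.002; Mrpl35 was 0.087 (adjusted p = 0.304) when its probe sets were averaged.

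Translation factors were mixed. Of 33 initiation genes 10 were higher (30.3%, against 15.5% of all genes) and 6 lower (18.2%, against 18.9%), with a median of 0.12. With sex as a covariate 5 were higher, against 14.4% of all genes. When single arrays were left out 5 to 12 were higher, against 11.5% to 15.6% of all genes. With the median of other bright genes subtracted 3 were higher, against 8.68% of all genes. Eif3f (-0.55, adjusted p = 0.000124) and Eif3h (-0.57, adjusted p = 0.000154), both of the factor that loads the small subunit, fell with Eif4a2, a helicase (-0.67, adjusted p = 0.000922), while Eif1a, a factor of start codon scanning, rose by 0.64 (adjusted p = 0.000527). Of 12 elongation and termination genes 2 were higher and 2 lower (16.7% each, near the shares of all genes, median 0.055). Eef2, the translocase, fell by 0.45 (adjusted p = 0.00102), though its difference was -0.17 (adjusted p = 0.0743) when its probe sets were averaged. Eef2k, the kinase that inhibits it, fell by 1.52 (adjusted p = 1.78e-05). Eef2k read 7.45 to 8.01 on the inactivated arrays and 9.17 to 9.42 on the control arrays. The termination factors Etf1 and Gspt1 rose by 0.37 (adjusted p = 0.00249) and 0.45 (adjusted p = 0.00826).

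Of 29 genes known to control ribosomal protein synthesis, 7 were higher and 7 lower (24.1% each, median 0.025). Across all genes 15.5% were higher and 18.9% lower. Mycl, a Myc family factor, fell by 2.35 (adjusted p = 6.77e-06) and read 5.28 to 6.27 on the inactivated arrays and 8.19 to 8.26 on the control arrays. Pdcd4, an inhibitor of the initiation helicase, fell by 1.16 (adjusted p = 0.000213). Mxd1, an antagonist of Myc, rose by 0.97 (adjusted p = 8.72e-05), and Eif4ebp1, the cap-binding inhibitor that mTOR phosphorylates, rose by 1.13 (adjusted p = 0.000109). Mtor fell by 0.33 (adjusted p = 0.0173), a call lost without control array 3, and its probe set with the largest spread over the arrays passed in the opposite direction (0.33, adjusted p = 0.0483), so its direction is not settled. Myc differed by 0.23 (adjusted p = 0.304) and Larp1 by -0.080 (adjusted p = 0.476), neither of which passed. Transcript levels do not show the activity of these kinases and factors.

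**Figure D4:**
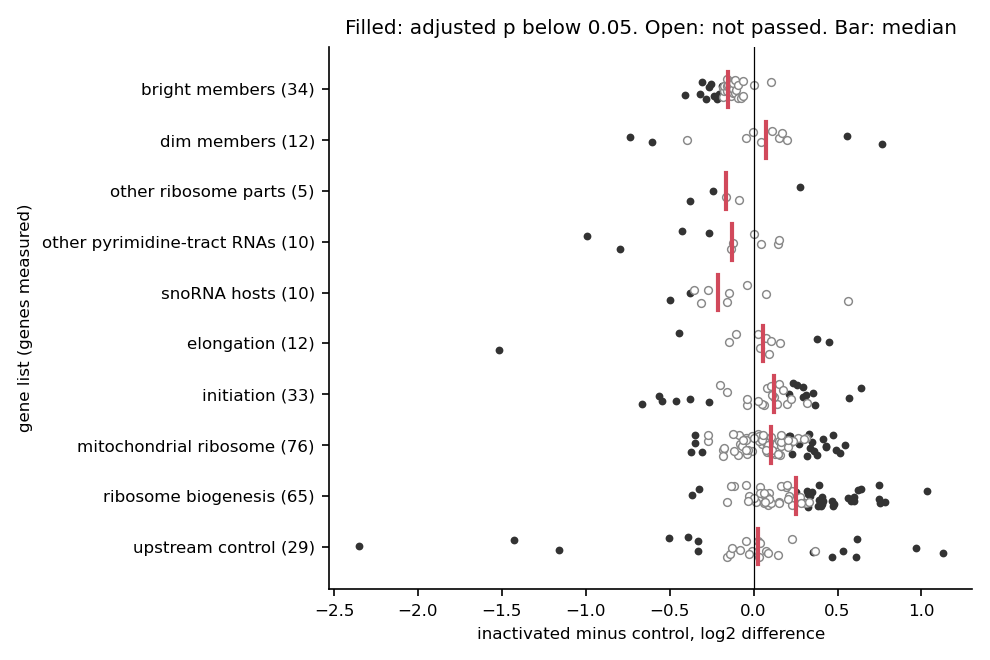
Log2 difference (inactivated minus control, x axis) of each gene in the bright and dim ribosomal proteins and in 8 related lists (y axis, number of genes measured in brackets); filled points passed limma at adjusted p below 0.05 and red bars are medians. The bright ribosomal proteins cluster tightly at a median of -0.15, and ribosome biogenesis genes have a median of 0.25.

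The sex of the mice, inferred from the levels of Xist and of Y-linked genes, was unbalanced, with 3 females and 2 males in the inactivated group and 1 female and 3 males in the control group. The bright member median difference was -0.15 among females, where it rests on 1 control array, and -0.17 among males. The limma interaction with sex also rests on that 1 array (0 of 46 members passed, 1 at an unadjusted p below 0.05), so it does not show that the sexes responded alike. With sex as a covariate 15 members were lower and 2 higher, against 18.5% and 14.4% of all genes.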

How the data were processed

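The authors deposited log2 values for 45037 probe sets on 9 Affymetrix mouse genome expression arrays, 1 column per array; the submitters' processing notes name affy without a version, while how background, scaling between arrays and summary were handled is not given in the sources used here. The values were used as deposited, with no filter. Array summaries are compressed near the top of the range, where most ribosomal protein probe sets lie, so their folds may be understated, and the number of arrays limits the precision.

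Genes were named from the platform annotation, which gave 34945 probe sets 1 symbol, 932 several and left 9160 unlisted. Groups were compared with limma 3.58.1 (lmFit, eBayes, two-sided) in R 4.3.3 on all probe sets, without covariates, with 7 residual degrees of freedom and Benjamini-Hochberg adjustment over all 45037, threshold 0.05. The steps were tested on simulated arrays. Single array values used an exact permutation test over all splits into 5 and 4. The members, lists and tests were chosen with earlier results of these data known, so counts and medians of lists are descriptions without a test.

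Members named with values were up to 8 that passed in each direction, by size of difference, the stalk genes, Rpsa, Rpl11, Rps6, the copies with their parent genes and the 4 with the smallest difference; of each related list, up to 4 with the lowest adjusted p, plus Mtor, Myc, Larp1 and Eif4ebp1. Rpl22, Rpl10a, Rps10, Rps16, Rpl14, Rpl8, Rpl7, Rpl13a, Rps14, Rps4x, Rps3a1, Polr1c and Imp3 were named after their values were seen. Of 25 alternatives, those that subtract the 99th percentile or the median of other bright genes were chosen after seeing the data. Array numbers shared by the groups are not shown to pair them: correlations of same-numbered deviations were -0.27, 0.0068, -0.094 and 0.078. Differently numbered arrays were not compared, so these values cannot exclude pairing.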

Additional observations from a re-analysis of the deposited data

Results flagged for a closer look

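Single arrays stood far from the rest of their group in 8 of 108 groups of values checked, by the gap to the nearest array as a share of the group's range; chance flags about 1 in 20 groups. The median of the 46 members against the control mean was -0.082 on inactivated array 5, where the nearest of the other 4 was -0.15, and the median of the 34 bright members was -0.098 there against -0.16. Without that array 16 members were lower, against 19.7% of all genes. Rps7 read 12.21 on inactivated array 1, the lowest of its group, and Rpl3l read 2.83 on inactivated array 2, near background. Rpl41 read 13.05 on control array 1, although the 4 control values span only a few thousandths. Control array 1 also gave the highest control values of Gspt1 (9.23), Utp4 (7.98) and Larp1 (8.90).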

How the results depend on the processing

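Over 25 alternatives the members' median stayed below 0. The count of higher members stayed at 2 or 3. The count of 12 lower members rose to 24 with cyclic loess (17.3% of all genes lower). It rose to 29 with an intensity trend and robust prior (18.9%) and to 31 with no moderation (15.9%). With array 99th percentiles subtracted it was 31, and with the median of other bright genes subtracted 35. With those subtractions the share of all genes lower also rose, from 18.9% to 25.2% and 28.4%. The share higher fell there from 15.5% to 10% and 8.68%. At a threshold of 0.01 the count fell to 7, against 12% of all genes. The replicate number as a block, over replicates 1 to 4, gave 6 of the 46, against 17% of all genes lower in that setting. The numbers are not shown to pair the mice. Leaving out single arrays gave 9 to 16 lower, against 15.1% to 19.7% of all genes. The median difference of -0.13 became -0.17 with cyclic loess, -0.084 with array medians subtracted, -0.22 with 99th percentiles subtracted, -0.26 with the median of other bright genes subtracted, -0.094 when a gene's probe sets were averaged and -0.095 for the probe set with the largest spread. Subtracting the median of other bright genes moved the median of all genes from 0.031 to -0.099. Signs turned with the choice of probe set: Rps9 was 0.0088 with _x_at and _s_at probe sets left out and with the largest spread, and with the largest spread Rps18 was 0.20, Gas5 0.21 and Mtor 0.33; Mtor was 0.018 for the mean of its probe sets. The probe sets chosen by spread for Rps9 and Rps18 are dim. For the other settings the cause was not tested. Small differences near the top of the signal range are limited by array compression and by 9 arrays.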
